A study of Mus musculus with 8 samples.

Results

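The genes described here encode peptidases that work at the cell surface or in the secretory pathway. They are the aminopeptidases Anpep, Enpep and Lnpep, the endopeptidases Mme and Ece1, the dipeptidyl carboxypeptidase Ace, the prolyl peptidases Dpp4 and Fap, and the carboxypeptidases Cpe and Cpd. Every probe set of the deposited table that carries 1 of these 10 gene symbols and no other gene was kept, which gave 18 probe sets for 9 genes among 22690 probe sets. No probe set of the table carries Lnpep, which was not analysed here. The set was selected on the difference between BMP7-treated and vehicle-treated cells in these same arrays, so the differences of its members are given as a description and support nothing on their own.

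C3H10T1/2 is a multipotent mesenchymal cell line from mouse embryo, and BMP7 belongs to the bone morphogenetic proteins, growth factors whose receptors activate SMAD transcription factors. Confluent cultures of this line were kept for 3 days with BMP7 at 3.3 nM or with its vehicle, and total RNA of 4 samples per group was hybridised to Affymetrix mouse 430A arrays, 1 array per sample. Both groups thus share the cell line, the confluence and the length of treatment. The labels do not say whether the samples came from separate cultures, so the spread between them may be technical.

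Peptidases of this kind face the outside of the cell or the inside of the secretory pathway and trim peptides that pass by. Membrane aminopeptidases take single residues from the front end of a peptide, neprilysin-type enzymes cut inside short peptides, ACE removes pairs of residues from the back end, and carboxypeptidases E and D remove basic residues that convertases leave behind when they cut prohormones. In this way they set how long angiotensins, kinins, enkephalins, natriuretic peptides and chemokines stay active. Several of the proteins are also known as surface antigens of mesenchymal and blood cells, among them CD13 (Anpep), CD10 (Mme) and CD26 (Dpp4), and fibroblast activation protein (Fap) is named for activated stromal fibroblasts.

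The arrays gave a MAS5 signal on a linear scale for each probe set. The mean without the outer 2% at each end was 1500.4 to 1500.7 on all 8. The median signal still differed, from 488 on Vehicle replicate 3 to 622 on BMP7 replicate 2. Differences were taken on log2(signal + 16), so they understate those of low signals, and an adjusted p under 0.05 in limma over the 13576 probe sets above a signal filter of about 325 counts here as a call. Vehicle replicate 3 stood apart. Its ratio of 3' to 5' signal for the Actb control, a sign of RNA breakdown, was 6.55, against 1.17 to 1.40 on the other 7 arrays, and on the first principal component of the tested probe sets it lay at -85.3, against -24.2 to 6.55 for the other vehicle arrays. Among the 18 peptidase probe sets, the signal of this array was below all other vehicle arrays for 8, above them for 7 and among them for 3, and its values are named below where they matter. The general mesenchymal markers Vim, Col1a1 and Col1a2 had mean vehicle signals of 71165, 51697 and 63934. The macrophage marker Ptprc, the endothelial marker Pecam1 and the epithelial marker Epcam had 150.5, 57.1 and 35.7. These 3 are single picks: in the wider lists, 4 of 9 macrophage, 1 of 7 endothelial and 0 of 8 epithelial markers passed the filter.

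Of the 9 genes with a probe set, 7 were tested, and 4 of these were called lower in BMP7-treated cells (Anpep, Enpep, Mme and Cpe) and none higher. Over all 8374 tested genes the share called lower was 1.73% and the share called higher 1.56%. By probe set, 4 of 14 tested were called lower and none higher, against 1.5% and 1.63% of all tested probe sets. The median log2 fold change was -0.16 over the 14 probe sets and 0.04 over all tested ones. Since the set was gathered with these differences in view, nothing is read from these counts. The plot of fold changes sets each probe set beside the distribution of all tested ones.

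**Figure D1:**
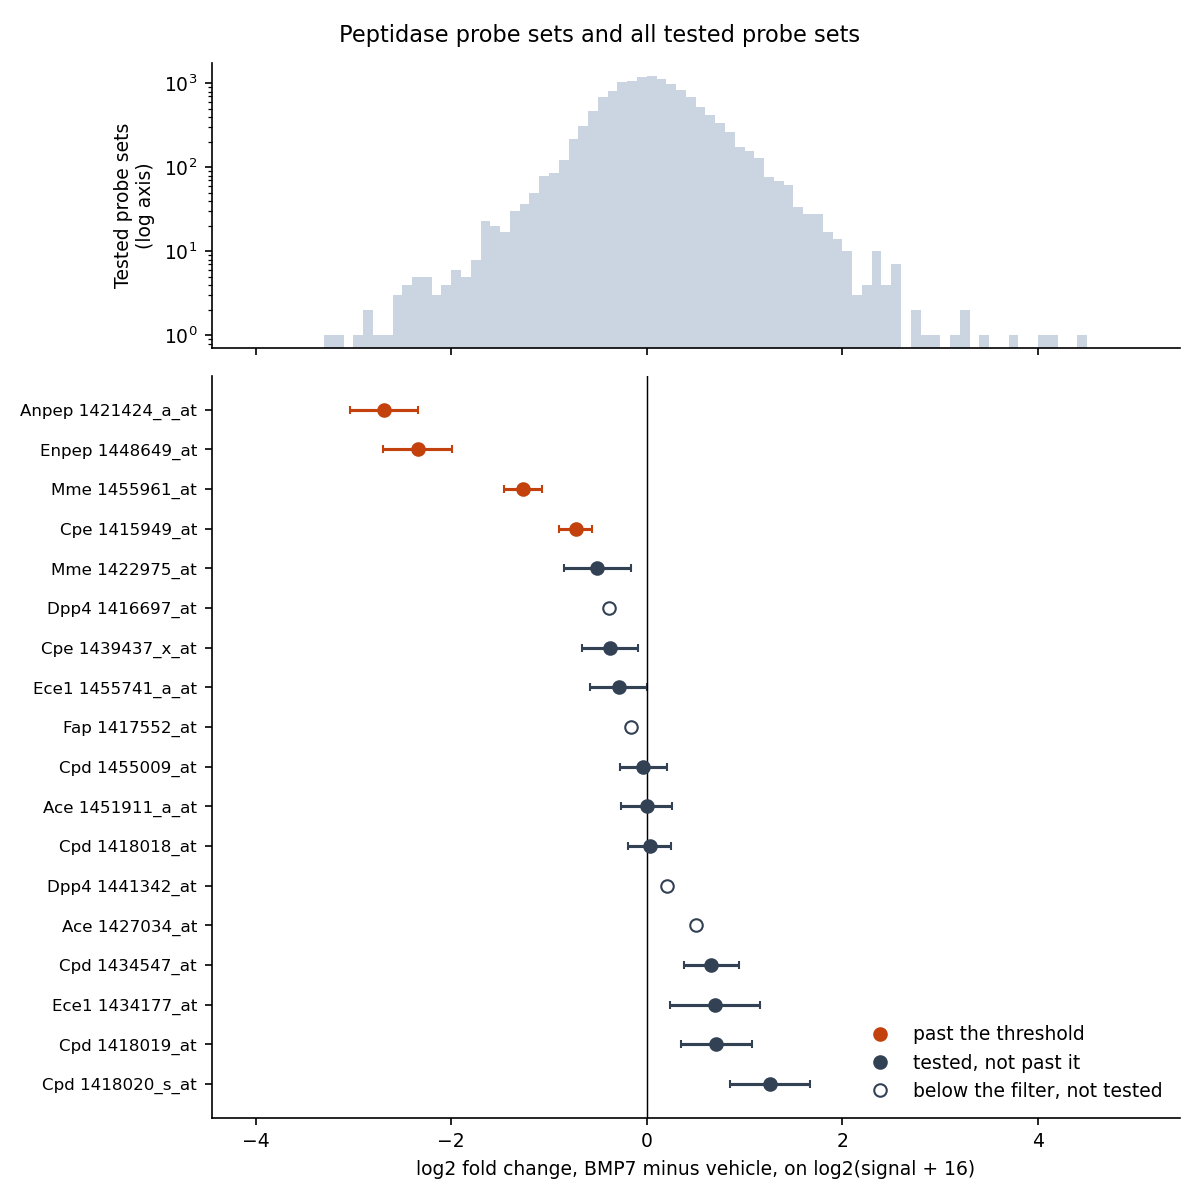
The upper panel counts all 13576 tested probe sets by log2 fold change (BMP7 minus vehicle, bins of 0.1, log axis), and the lower panel gives the 18 peptidase probe sets on the same axis with their standard error where tested. Anpep at -2.68 and Enpep at -2.34 lie in the far left tail, Mme and Cpe follow with 1 called probe set each, and the remaining probe sets lie between -0.50 and 1.26.

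The membrane aminopeptidases showed the largest differences of the set. Anpep encodes aminopeptidase N, a zinc enzyme that removes neutral residues, and lies on chromosome 7. Its signal was 1822, 2005, 2794 and 1795 on the 4 vehicle arrays and 460.5, 408, 134 and 349 on the 4 BMP7 arrays. Every BMP7 array was thus below every vehicle array, the highest vehicle value came from replicate 3 and the lowest BMP7 value also from a replicate 3. The group means were 2104 ± 469 and 338 ± 143 (SD, n = 4 each), a 6.43-fold lower level on the log2(signal + 16) scale (log2 fold change -2.68 ± 0.35 SE). This was rank 7 from the lowest among the 13576 tested probe sets. Without Vehicle replicate 3 the log2 fold change was -2.54. The probe set is of a type that can recognise several transcripts of a gene.

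Enpep, on chromosome 3, encodes aminopeptidase A, which removes acidic residues and is known for turning angiotensin II into angiotensin III. Its signal was 1123, 915, 724 and 651.5 on the vehicle arrays and 184, 253, 76.4 and 143 on the BMP7 arrays. The groups did not overlap, all 4 BMP7 values were under 325, the signal at the filter, and the lowest of them was again on BMP7 replicate 3. The means were 853 ± 212 and 164 ± 74.2 (SD, n = 4 each), a 5.07-fold lower level (log2 fold change -2.34 ± 0.35 SE, rank 17 from the lowest). Since the BMP7 signals were low, this fold depends on the pseudocount. Without Vehicle replicate 3 the value was -2.41.

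The promoter windows of the genes with the largest differences are shown because their levels moved the same way. Each holds 250 bases before and 50 after an annotated gene start in RefSeq on GRCm38.p6, written 5′ to 3′ on the strand of the gene. Of the 10 genes, 8 had such windows, 14 in all. Capitals mark matches, on either strand, to the short SMAD-binding box GTCT and to the GC-rich element GGCGCC, both of which are known from BMP and TGF-beta target genes. Anpep is at chr7:79848161-79848460 on the minus strand, Enpep at chr3:129332700-129332999 on the minus strand, and Mme, on the plus strand, has 3 annotated starts, of which the windows at chr3:63294961-63295260 and chr3:63295622-63295921 are given.

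Anpep: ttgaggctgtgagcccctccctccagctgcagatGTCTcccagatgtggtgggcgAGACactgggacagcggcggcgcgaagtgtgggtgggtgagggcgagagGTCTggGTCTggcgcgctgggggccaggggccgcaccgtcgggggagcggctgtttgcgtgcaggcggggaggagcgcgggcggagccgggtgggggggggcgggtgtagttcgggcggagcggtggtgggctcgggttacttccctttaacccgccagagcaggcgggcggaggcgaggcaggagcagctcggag

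Enpep: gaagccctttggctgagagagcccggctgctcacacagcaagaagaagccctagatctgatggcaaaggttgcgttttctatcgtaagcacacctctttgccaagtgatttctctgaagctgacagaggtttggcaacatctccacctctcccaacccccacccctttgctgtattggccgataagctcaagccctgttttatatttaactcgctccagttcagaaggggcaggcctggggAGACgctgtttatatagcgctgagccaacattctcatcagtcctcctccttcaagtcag

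Mme, first start: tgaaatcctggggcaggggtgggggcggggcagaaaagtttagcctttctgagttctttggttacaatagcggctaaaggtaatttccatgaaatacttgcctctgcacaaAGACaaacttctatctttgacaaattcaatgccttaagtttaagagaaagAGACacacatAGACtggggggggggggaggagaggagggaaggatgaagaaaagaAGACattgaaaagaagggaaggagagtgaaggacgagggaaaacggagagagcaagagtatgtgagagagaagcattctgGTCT

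Mme, second start: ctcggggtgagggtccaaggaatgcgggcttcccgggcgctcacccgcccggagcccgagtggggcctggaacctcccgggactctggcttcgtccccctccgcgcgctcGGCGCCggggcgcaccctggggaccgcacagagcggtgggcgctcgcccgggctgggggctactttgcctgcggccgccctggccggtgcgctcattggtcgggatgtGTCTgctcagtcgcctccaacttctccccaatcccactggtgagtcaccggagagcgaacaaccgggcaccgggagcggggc

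The Anpep window held 4 GTCT boxes and no GGCGCC, and the Enpep window 1 and none. The first Mme window held 5 GTCT boxes and no GGCGCC, and the next one held 1 of each. The window of the third Mme start, at chr3:63295845-63296144, overlaps the second and is not printed; it held no GTCT and 1 GGCGCC. At least 1 GTCT on either strand was found in 88.0% of all 32851 promoter windows, so a GTCT box is the usual case. GGCGCC was found in 11.9% and is less common. The windows also differed in kind. GC boxes (GGGCGG, in 35.7% of all windows) and TATAAA (in 13.6%) were likewise counted on either strand. The Anpep window had 28 CpG pairs, 72.3% G or C, 4 GC boxes and no TATAAA. The Enpep window had 7 CpG pairs, 51.3% G or C, no GC box and 2 matches to TATAAA. Both of these matches lie on the opposite strand and read TTTATA in the printed sequence. None of the matches in these 4 windows overlapped another. A match describes the letters only.

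**Figure D2:**
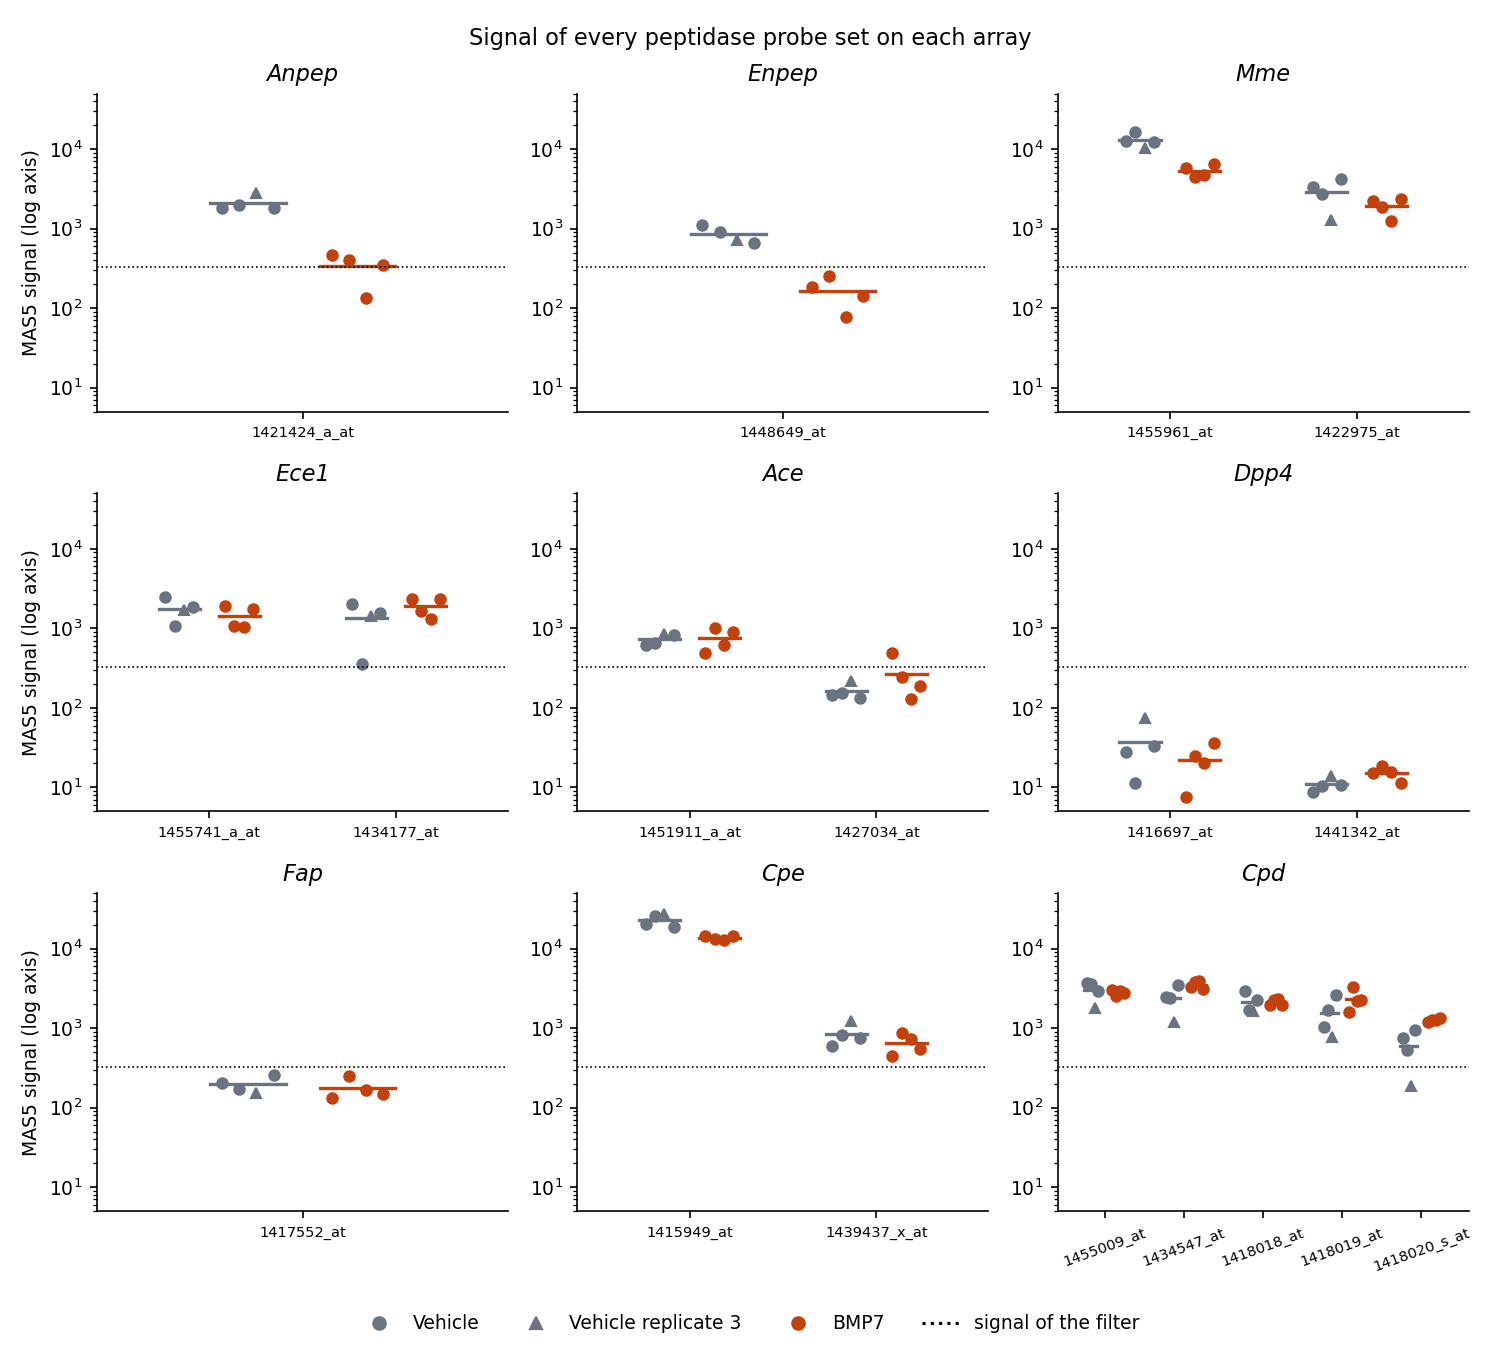
MAS5 signal (log axis) of each of the 18 probe sets on the 8 arrays, by gene, with a bar at each group mean, a triangle for Vehicle replicate 3 and a dotted line at the filter's signal of about 325. The BMP7 points lie wholly below the vehicle points for Anpep, Enpep, 1 probe set each of Mme and Cpe, and wholly above them for the Cpd probe set 1418020_s_at.

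The endopeptidase gene Mme, on chromosome 3, encodes neprilysin, which degrades enkephalins, substance P and natriuretic peptides. Its probe set 1455961_at had 12814, 16195, 10309 and 12374 on the vehicle arrays and 5805, 4517, 4697 and 6412 on the BMP7 arrays. The highest BMP7 value was well below the lowest vehicle value, which came from replicate 3. The means were 12923 ± 2439 and 5358 ± 904 (SD, n = 4 each), a 2.40-fold lower level (log2 fold change -1.26 ± 0.19 SE). The other Mme probe set, 1422975_at, pointed the same way with overlapping groups: 3365, 2755, 1282 and 4193 in vehicle against 2211, 1852, 1257 and 2370 with BMP7 (log2 fold change -0.50 ± 0.35 SE, not called). Vehicle replicate 3 was the one vehicle array inside the BMP7 range there, and without it the value was -0.85. With the mean of both probe sets the gene was 1.85-fold lower (log2 fold change -0.88 ± 0.24 SE) and was not called.

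Ece1, on chromosome 4, encodes endothelin-converting enzyme, which releases active endothelin from its precursor. Its probe sets pointed in opposite directions and neither was called. On 1455741_a_at the means were 1774 ± 567 in vehicle-treated and 1442 ± 440.0 in BMP7-treated cells (log2 fold change -0.29 ± 0.29 SE), and on 1434177_at 1336 ± 704 and 1892 ± 507 (0.70 ± 0.46 SE; SD, n = 4 each). On the latter, Vehicle replicate 2 had 353 and the other vehicle arrays 1428 to 2020.5, which lies inside the BMP7 range of 1299 to 2316.

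Ace, on chromosome 11, encodes angiotensin-converting enzyme, which makes angiotensin II and breaks down bradykinin. Its tested probe set, 1451911_a_at, had 618, 654, 848.5 and 820 in vehicle and 493, 1016, 625.5 and 891 in BMP7 cells. The vehicle values lay inside the BMP7 range, and the log2 fold change was -0.0012 ± 0.26 SE. Its other probe set, 1427034_at, lay below the filter at 163 ± 39.4 and 264 ± 161 (SD, n = 4 each), with BMP7 replicate 1 at 496 and the other BMP7 arrays at 131 to 242.

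The prolyl peptidases are serine enzymes that cut after proline near the front end of peptides. Dpp4, on chromosome 2, is known for clipping chemokines such as Cxcl12 and incretin hormones, and Fap, its near relative on the same chromosome, for its place on stromal fibroblasts. The Dpp4 probe set 1416697_at ranged from 11.4 to 74.3 in vehicle and from 7.6 to 35.9 in BMP7 cells, and 1441342_at from 8.8 to 14.0 and from 11.3 to 18.7. These are near the bottom of the table's scale, far under the filter's signal. Fap had 205, 170.5, 152 and 255 in vehicle and 132, 250.5, 165 and 149 in BMP7 cells, also below the filter, with the groups overlapping. Neither gene was tested, and with no filter none of their 3 probe sets was called.

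Among the carboxypeptidases, Cpe trims prohormones in secretory vesicles. Its probe set 1415949_at, on chromosome 8, had 20405, 25661, 27313 and 18508 in vehicle and 14442, 13380, 12855 and 14211 in BMP7 cells. The BMP7 arrays lay close together, with a coefficient of variation of 5.36% against 18.2% in vehicle, and all below the vehicle arrays. The means were 22972 ± 4187 and 13722 ± 736 (SD, n = 4 each), a 1.65-fold lower level (log2 fold change -0.73 ± 0.17 SE). The other Cpe probe set, 1439437_x_at, of a type that can cross-hybridise with related transcripts, had overlapping groups at 850.1 ± 271 and 648 ± 189 and was not called (-0.38 ± 0.28 SE). The Cpe call was lost when Vehicle replicate 1 or 2 or any 1 of the BMP7 arrays was left out, in eBayes without a trend, with no filter, with the replicate block and with the mean of both probe sets (1.47-fold lower). It was kept without Vehicle replicate 3 or 4.

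Cpd, on chromosome 11, encodes carboxypeptidase D of the trans-Golgi network, and its 5 probe sets disagreed. Their log2 fold changes ran from -0.03 ± 0.24 SE for 1455009_at through 0.03, 0.66 and 0.71 to 1.26 ± 0.41 SE for 1418020_s_at, and none was called. On the last of these the signal was 752, 524, 186 and 953 in vehicle and 1197, 1252, 1271 and 1337 in BMP7 cells, so the groups did not overlap. Groups kept apart with BMP7 higher in 8.3% of all tested probe sets, and with BMP7 lower in 7.1%. Of the 14 tested peptidase probe sets 1 was apart upwards and 4 downwards. Vehicle replicate 3 gave the lowest vehicle signal for all 5 Cpd probe sets, by 0.44 to 1.87 on the log2 scale below the mean of the other vehicle arrays, and without it the 5 log2 fold changes ran from -0.26 to 0.79. Without Vehicle replicate 4, the highest vehicle array for 1418020_s_at, the value of that probe set was 1.55 and it was called higher in limma. The part of RNA breakdown on Vehicle replicate 3 in the Cpd values was not tested.

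The level of a transcript in these bulk samples cannot tell fewer cells that carry it from less of it per cell. Of the 10 general mesenchymal markers, all tested, 2 fell and none rose, while all 10 log2 fold changes were negative (median -0.45, 6 at an unadjusted p under 0.05). These were the proteoglycan gene Lum (4.30-fold lower, adjusted p 0.00255 in limma) and the collagen gene Col3a1 (1.80-fold lower, adjusted p 0.0268), and the call of this Col3a1 probe set was lost in eBayes without a trend, with no filter and without Vehicle replicate 1 or 2 or any 1 BMP7 array. A second Col3a1 probe set was at -1.57 (adjusted p 0.00424). The summed signal of the 10 markers was 484818 to 661252 on the vehicle arrays and 380112 to 455039 on the BMP7 arrays, without overlap. The part of this shift in the lower Anpep, Enpep, Mme and Cpe signals was not tested. The summed signals of the other cell types overlapped between the groups: 4038 to 5163 against 4094 to 5617 for 9 macrophage markers, 1135 to 1592 against 1099 to 1728 for 7 endothelial markers and 857 to 1154 against 657 to 1279 for 8 epithelial markers.

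The remaining peptidase families gave few calls among their tested genes. None of the 16 tested genes of the list of M1 and other aminopeptidases was called (2 at an unadjusted p under 0.05), although 12 had a negative log2 fold change (median -0.24, against 0.00 over all tested genes). The lowest was Erap1, the aminopeptidase that trims antigenic peptides in the endoplasmic reticulum, at 743 ± 138 without and 431 ± 91.3 with BMP7 (log2 fold change -0.77, adjusted p 0.104 in limma). None of 7 tested relatives of neprilysin and ACE and oligopeptidases, none of 7 prolyl peptidases and none of 5 carboxypeptidases was called either (1, 1 and 2 at an unadjusted p under 0.05), with medians of -0.09, 0.17 and -0.30. In the same order these lists had 15, 8 and 16 genes with a probe set, and those under the filter were not tested. Among them was Phex, a relative of neprilysin described further below, which was called lower with no filter. Of 8 tested lysosomal peptidases none was called (5 at an unadjusted p under 0.05, median -0.27).

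In the list of proprotein convertases and peptide amidation 1 of 6 tested genes rose. It was Pcsk6, a convertase that is known to activate growth factors of the TGF-beta family, at 393 ± 156 in vehicle and 1337 ± 211 in BMP7 cells (3.47-fold, adjusted p 0.0101 in limma, groups apart, but adjusted p 0.051 without BMP7 replicate 2). Furin, the general convertase, had 1989 ± 1101 and 1590 ± 103 (SD, n = 4 each; adjusted p 0.753), and the amidating enzyme gene Pam 812 ± 301 and 826 ± 193 (adjusted p 0.907).

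Of the 9 tested peptidase inhibitors counted here 1 rose and none fell. Lxn encodes latexin, an inhibitor of metallocarboxypeptidases, and went from 6978 ± 1192 to 17235 ± 2556 (2.47-fold, adjusted p 0.00458 in limma). The median of these 9 genes was 0.03.

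None of the 9 tested peptide substrates and receptors was called in limma (3 at an unadjusted p under 0.05, median -0.22), but 1 was called lower without Vehicle replicate 3 or 4 or BMP7 replicate 1, and 1 lower and 1 higher with the replicate block. Cxcl12, the chemokine that Dpp4 clips, had 9354 ± 2826 without and 9283 ± 4586 with BMP7 (log2 fold change -0.10, adjusted p 0.890), and its other probe set, at 0.26, was not called either. Penk, the enkephalin precursor, had 2160 ± 1345 and 5071 ± 2211 (log2 fold change 1.38, adjusted p 0.146). The angiotensin precursor gene Agt, the endothelin gene Edn1, the endothelin receptor gene Ednra and the bradykinin receptor gene Bdkrb2 lay below the filter with means between 37.7 and 275 in either group, and were not tested. Among 13 tested mesenchymal surface markers 2 fell, the adhesion molecule gene Vcam1 (5.37-fold lower, adjusted p 0.000577 in limma) and the growth factor receptor gene Pdgfra (2.42-fold lower, adjusted p 0.0176), and 1 rose, Ly6a (1.86-fold, adjusted p 0.0352). A second Vcam1 probe set was also called (log2 fold change -0.99) and another was not (-1.36, adjusted p 0.0560), while the other tested Pdgfra probe set was at -0.15 (adjusted p 0.842). The Pdgfra call was lost without Vehicle replicate 1 or without BMP7 replicate 2, 3 or 4. The Ly6a call was lost in eBayes without a trend, with no filter and without Vehicle replicate 1 or 2 or any 1 BMP7 array.

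**Figure D3:**
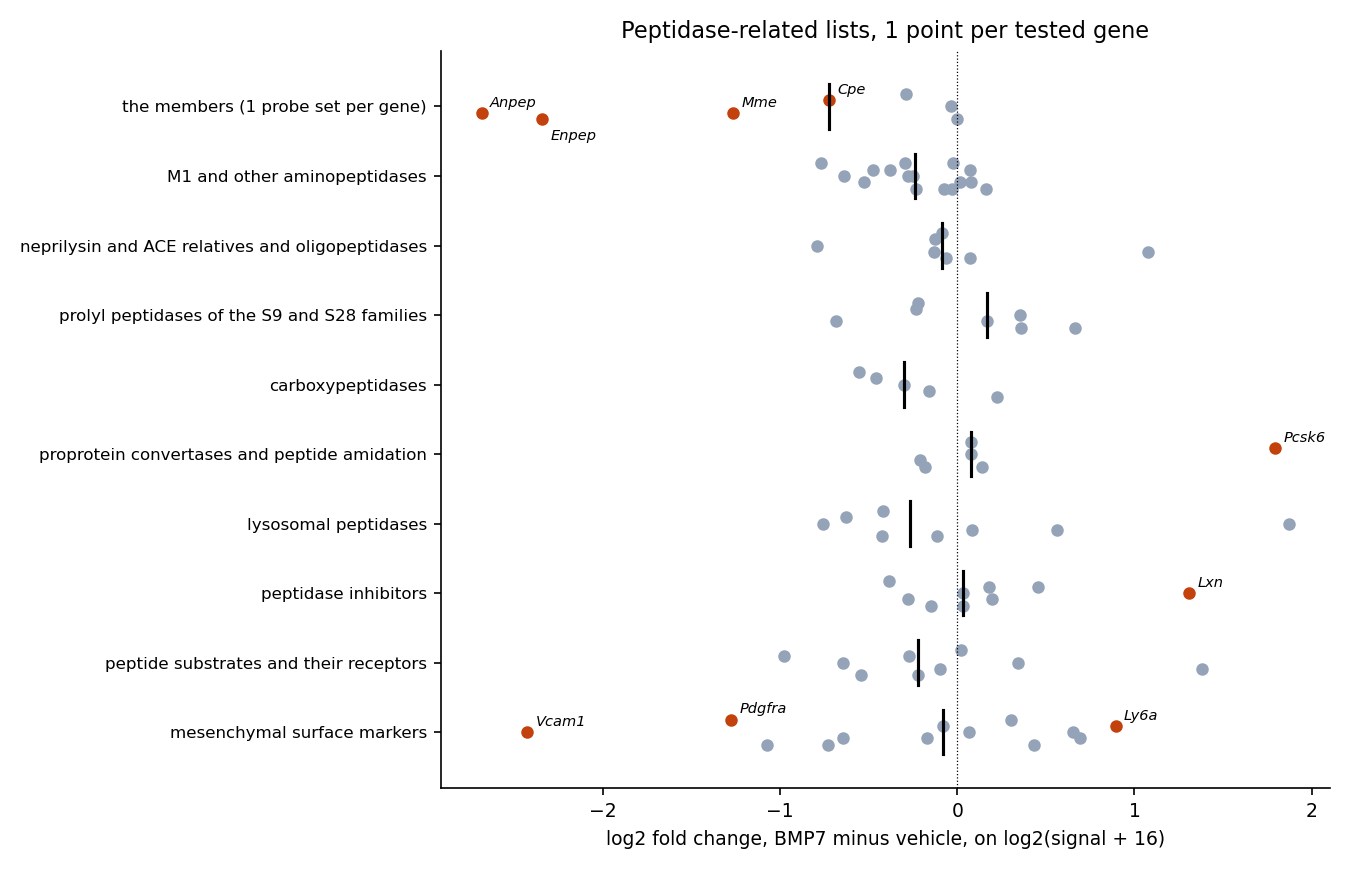
Each point is the log2 fold change (BMP7 minus vehicle, on log2(signal + 16)) of 1 tested gene, grouped by list, with a bar at the median of the list; coloured and named points passed limma's threshold. The 4 called members lie between -2.68 and -0.73, while in the 6 other peptidase lists drawn here Pcsk6, at 1.80, was the 1 called gene.

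By the annotation in the deposited table, 83 tested genes other than the members carry peptidase activity and a membrane or extracellular location, and 140 carry peptidase activity without it. In the first group 6 fell, namely C1s1, Adamts1, Adamts5, Adamts4, C1ra and Adam19, and 1 rose, Adam17. In the second group none fell and 2 rose, Pcsk6 and Pa2g4, of which the latter is a growth-regulating protein related to methionine aminopeptidases. Over all 8374 tested genes 1.73% were called lower and 1.56% higher. The median log2 fold change was -0.11 in the first group and 0.01 in the second, against 0.00 over all tested genes. The difference between the groups was not tested. A gene whose annotation lacks such a location, such as Pcsk6, may still act outside the cell or in the secretory pathway. C1s1, a protease of the complement cascade, had the lowest value (7.83-fold lower, adjusted p 0.00139 in limma), and Adamts1, which cuts proteoglycans, was 3.73-fold lower (adjusted p 0.00342). These calls and that of C1ra held without each array in turn, while those of Adamts4, Adamts5, Adam19, Adam17 and Pa2g4 were each lost without 1 or another of 4 to 6 arrays, among them BMP7 replicates 2, 3 and 4. The Adamts5 call was also lost with no filter and in eBayes without a trend, and the other Adamts5 probe set (adjusted p 0.0634) and the 3 other Pa2g4 probe sets (log2 fold change 0.37 to 0.75) were not called.

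Among 8373 other genes, the profile over the 8 arrays nearest to that of Anpep belonged to Rtp4, with a root mean square difference of 0.29 on the centred log2 scale. H2-T23, Enpep, Vcam1 and C1s1 followed with 0.38, 0.41, 0.43 and 0.44. Rtp4 encodes a chaperone of receptors that is induced by interferon, and H2-T23 a class Ib histocompatibility protein. Anpep and each of these 5 genes had their lowest signal on BMP7 replicate 3. Of the other members, Mme stood at rank 88, Cpe at 311, Ece1 at 1854, Ace at 3774 and Cpd at 4515 in this order of likeness. The order is a description, since all 8 arrays and the treatment difference enter it.

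**Figure D4:**
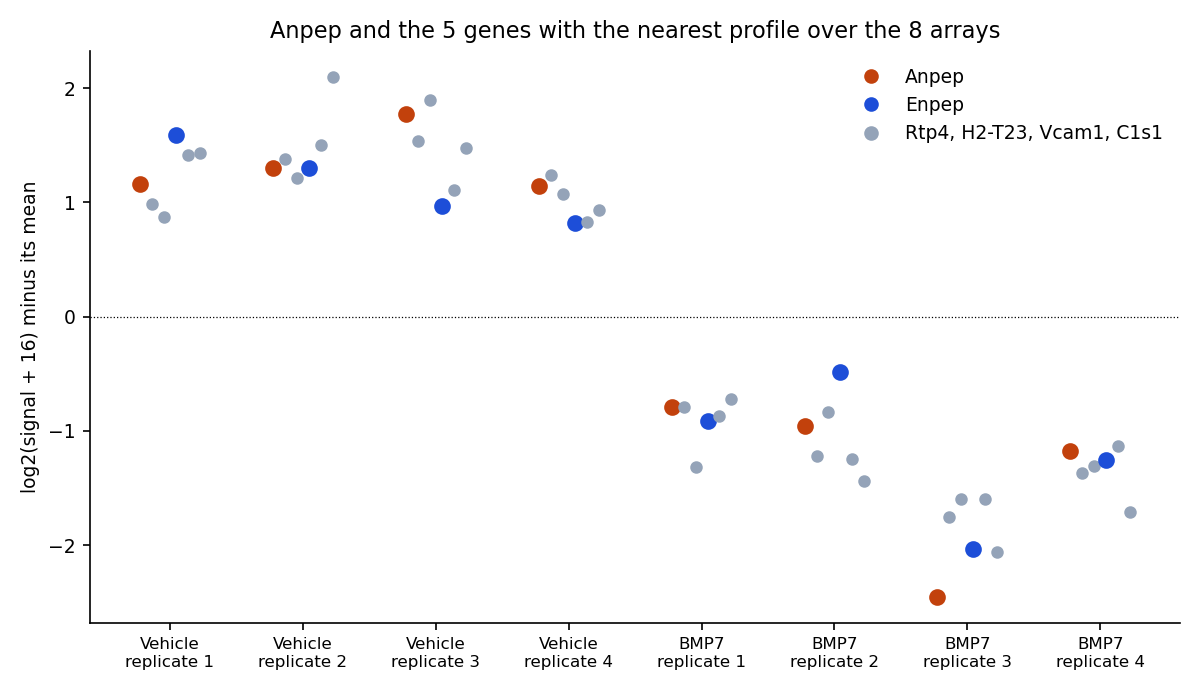
The log2(signal + 16) of Anpep, Enpep and the 4 other genes nearest to Anpep, each minus its own mean over the arrays, on every array. All 6 genes lie above 0 on the 4 vehicle arrays and below 0 on the 4 BMP7 arrays, with Anpep lowest on BMP7 replicate 3.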

How the data were processed

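The authors deposited a table with an intensity per probe set and array on a linear scale, which the submitters' processing notes credit to MAS5 (version not given in the sources used here). Its columns are named for the samples. The authors' deposited group means equalled the means of the 4 Vehicle and 4 BMP7 columns within 0.01 for all 22690 probe sets. Another 8 per-array columns, whose names show no sample, were not used. Gene symbols came from the deposited annotation, and lists were matched through Entrez identifiers to RefSeq (GRCm38.p6), which held 20828 of the 21453 probe sets with 1 gene (482 had several and 691 none; 64 are controls).

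Signals were analysed as log2(signal + 16). Probe sets with a mean at or above the 40th percentile (8.41) were tested with limma 3.58.1 in R 4.3.3 (lmFit, eBayes with a trend, two-sided, no block) and adjusted by Benjamini-Hochberg over all 13576. The fit was run on simulated data with independent noise of the same spread on all arrays of a probe set. These data held no outlying array such as Vehicle replicate 3, so they cannot show how the fit behaves with it. For counts of genes, the brightest tested probe set stood for its gene. The number of arrays limits the precision (median standard error 0.25).

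The members and lists were chosen with earlier results of these data known. Named were all members, up to 3 rises and 3 falls per list, tested genes among Cxcl12, Agt, Edn1, Ednra and Bdkrb2, and the 5 genes nearest to Anpep; Erap1, Furin, Pam, Penk, Phex, Agtr2, Adm, Npr3 and the remaining called annotated peptidases were chosen after their values were seen, as was the annotation-based grouping. Alternatives were other pseudocounts, filters and scaling, no trend, leaving out each array, the replicate block and averaging all tested probe sets of a gene. A result for 1 gene of the inhibitor list is not reported here, and that list is counted without it.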

Additional observations from a re-analysis of the deposited data

How the results depend on the processing

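Anpep, Enpep and Mme were called lower under both other pseudocounts (1 and 64), with no filter, quantile normalization and eBayes without a trend. They were also called lower with the replicate block and without each of the 8 arrays. All 205 recomputed log2 fold changes of member probe sets moved by less than 1 SD, which for most of them was fixed in advance. The filters, the trend and the replicate block leave a log2 fold change as it is. Leaving out 1 of 4 arrays of a group cannot move it by 1 SD. Only the pseudocounts and quantile normalization could have done so. With the filter at the 60th percentile 2 member genes were called lower, since Anpep and Enpep were no longer tested; with all probe sets of a gene averaged 2 were called, since Mme and Cpe were not. No member gene, by its brightest probe set, was called higher under any of these settings, though the Cpd probe set 1418020_s_at was called higher without Vehicle replicate 4 (log2 fold change 1.55). The number of probe sets called over the whole table was 425, and 90 to 1084 without 1 array, with the lowest count without BMP7 replicate 3 and the highest without Vehicle replicate 4. With the replicate block it was 652. Same-numbered arrays deviated from their group means with correlations of 0.383, 0.036, 0.152 and 0.187. Of the 8 arrays, 7 correlated best with their own number, which is a hint from the data and not the design. The labels do not say that a replicate number marks a shared culture or day, so the samples were not treated as paired in the main fit. Among the lists, Pcsk6 was not called with the filter at the 60th percentile or without BMP7 replicate 2, the falls among annotated membrane or extracellular peptidases numbered 3 instead of 6 without Vehicle replicate 1 or 2 or BMP7 replicate 2, 3 or 4, but 8 without Vehicle replicate 3 or 4 and 9 with the replicate block, and the rises there lay between 0 and 3. Other annotated peptidases gave 0 to 2 rises and up to 1 fall. Lysosomal peptidases gave 1 fall and 1 rise without Vehicle replicate 3 and with the replicate block, and 1 rise without Vehicle replicate 4. Peptide substrates and receptors gave 1 fall without Vehicle replicate 3 or 4 or BMP7 replicate 1, and 1 fall and 1 rise with the replicate block. The falls among mesenchymal surface markers numbered 1 instead of 2 without Vehicle replicate 1 or BMP7 replicate 2, 3 or 4, and 3 without Vehicle replicate 3. Low signals limit Dpp4, Fap and the second Ace probe set, which stayed under the filter.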

Other observations

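The filter on low mean signals left out a relative of neprilysin with a difference larger than that of any member. Phex, on chromosome X, encodes a membrane endopeptidase of the neprilysin family that is known from phosphate handling in bone. Its signal was 1485, 1483, 1671 and 873 on the vehicle arrays and 21.0, 16.5, 71.6 and 37.1 on the BMP7 arrays. The groups were far apart, and the BMP7 signals were near the bottom of the scale. The means were 1378 ± 348 and 36.6 ± 25.0 (SD, n = 4 each), a log2 fold change of -4.80 on log2(signal + 16), which depends on the pseudocount. Its mean log2 signal over the 8 arrays lay under the filter's 8.41, so it was not tested in the fit reported above; with no filter limma called it lower (adjusted p 0.000635). Among the genes that the filter left out of the lists given above (those by annotation aside), no other was called in that fit.

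Some receptors of the peptides that these enzymes process, and a peptide gene, also lay under the filter. Agtr2, the type 2 angiotensin receptor, had 455 ± 433 in vehicle and 55.1 ± 39.9 in BMP7 cells, and the vasodilator peptide gene Adm 471 ± 132 and 156 ± 70.5 (SD, n = 4 each). Npr3, the clearance receptor of natriuretic peptides, had 92.9 and 249 as means, with 10.0 to 154 on the vehicle and 187.5 to 407 on the BMP7 arrays. With no filter limma's adjusted p for these 3 genes was 0.0711, 0.0825 and 0.225.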
